A study of Mus musculus with 18 samples.

Results

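The genes described here are 7 genes of costimulation and immune checkpoints: Cd80, Cd86, Icosl and Cd274 of the B7 family, the TNF superfamily ligands Tnfsf9 and Tnfsf15, and the receptor Cd40. They were chosen by name, and each was matched to its mouse Ensembl gene. All 7 had a value, out of 13598 genes with a value, and all 7 were among the 9707 genes that were tested. RNA-seq was done on peritoneal macrophages of TLR4-WT mice and of 2 mutant lines, TLR4-K730R and TLR4-K810R, in which CRISPR/Cas9 editing on a C57BL/6 background replaced a lysine of the TLR4 signalling domain (TIR) by arginine. Cells of each genotype were mock-treated or received LPS, the bacterial ligand of TLR4, at 100 ng/ml for 6 h, which gave 6 groups of 3 libraries. The comparison asks whether the response to LPS needs these lysines, which the study describes as acetylation sites. The cells were elicited with thioglycolate before lavage, so they are inflammatory rather than resting peritoneal cells. The labels number the libraries of a group from 1 to 3 and do not say whether they came from separate mice, so the p-values measure the spread between libraries. The event values hold no base calls, and the substitutions themselves were not checked here.

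T cells read antigen on a macrophage together with a second, costimulatory signal. CD80 and CD86 give that signal through CD28 and take it away through CTLA-4. ICOS ligand (Icosl) acts through ICOS, and PD-L1 (Cd274) restrains T cells through PD-1. 4-1BBL (Tnfsf9) binds 4-1BB on activated T cells, and TL1A (Tnfsf15) binds DR3. CD40 works in the other direction: it is the macrophage's receptor for CD40 ligand, which helper T cells carry, and it signals through TRAF proteins to NF-κB. In macrophages, LPS is known to raise several of these genes through NF-κB and through type I interferon.

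The unit of every level below is FPKM, a fragment rate scaled to transcript length and library size, so levels of different genes are per length. A level is the larger of the summed first-exon and the summed last-exon events of a gene. A difference is given on the scale of log2(FPKM + 1), which understates changes of genes below a few FPKM, and a gene is called when its adjusted p from limma is under 0.01.

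LPS raised 5 of the 7 genes in all 3 genotypes, where 10.4%, 9.32% and 9.08% of all genes were called higher in the order TLR4-WT, TLR4-K730R and TLR4-K810R. One of the 5, Tnfsf15, entered the test only through its LPS libraries. Cd274 went from 45.7 ± 6.91 to 421 ± 46.4 FPKM in TLR4-WT (SD, n = 3), Cd40 from 7.45 ± 2.68 to 90.6 ± 14.8, Cd86 from 5.88 ± 1.81 to 39.9 ± 11.1, Tnfsf9 from 1.58 ± 0.384 to 11.0 ± 1.68 and Tnfsf15 from 0.186 ± 0.162 to 18 ± 1.11. Cd80 and Icosl were not called in any genotype by these values. No gene of the 7 was called between genotypes, although after LPS 5 of them lay lower in every TLR4-K810R library than in every TLR4-WT library, as did 7.89% of all genes, and Tnfsf9 lay higher, as did 17.4%.

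By the GENCODE annotation of GRCm38, Cd80 (ENSMUSG00000075122, chr16:38455561-38496335, + strand) and Cd86 (ENSMUSG00000022901, chr16:36603869-36666081, - strand) lie on one chromosome. Icosl is ENSMUSG00000000732 (chr10:78069302-78083913, + strand) and Cd274 is ENSMUSG00000016496 (chr19:29367455-29388095, + strand). Tnfsf9 is ENSMUSG00000035678 (chr17:57105325-57107757, + strand), Tnfsf15 ENSMUSG00000050395 (chr4:63727084-63745113, - strand) and Cd40 ENSMUSG00000017652 (chr2:165055627-165072948, + strand).

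The sequences before the start sites are shown for 3 of the genes because they belong to members with unlike responses to LPS. Of the 7 genes, 4 matched an entry of the RefSeq promoter table (build GRCm38.p6). Cd86, Cd40 and Tnfsf9 have no entry. Each sequence runs 5′ to 3′ on the gene's own strand and ends before the first exon, and capitals mark a match to a searched motif. Cd274 (chr19:29367188-29367437, + strand) and Tnfsf15 (chr4:63745114-63745309, - strand) rose in all 3 genotypes, and Icosl (chr10:78069118-78069301, + strand) was not called.
Cd274: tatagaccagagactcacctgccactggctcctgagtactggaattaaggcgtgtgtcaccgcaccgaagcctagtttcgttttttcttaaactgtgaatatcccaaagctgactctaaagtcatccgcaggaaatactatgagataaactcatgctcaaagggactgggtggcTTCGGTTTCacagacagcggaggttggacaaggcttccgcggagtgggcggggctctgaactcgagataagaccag
Tnfsf15: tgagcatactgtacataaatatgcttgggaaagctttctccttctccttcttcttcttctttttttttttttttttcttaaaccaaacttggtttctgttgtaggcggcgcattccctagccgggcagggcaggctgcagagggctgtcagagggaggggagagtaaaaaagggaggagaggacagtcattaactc
Icosl: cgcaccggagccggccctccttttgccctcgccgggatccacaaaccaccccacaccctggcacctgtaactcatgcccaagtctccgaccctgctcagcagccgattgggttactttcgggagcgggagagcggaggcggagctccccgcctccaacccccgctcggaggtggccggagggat

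In the 250 bases before each RefSeq start, 4 motifs were searched on both strands. These were the NF-κB consensus, the interferon response core GAAANNGAA, the STAT motif TTCNNNGAA and the AP-1 motif TGANTCA. Cd274 held GAAANNGAA once, on the reverse strand from 76 to 68 bases before the start, and 7.13% of all 32851 promoters in the table hold it. Cd80 held TGANTCA once, from 42 to 36 bases before its RefSeq start, and 6.75% of all promoters hold it. That start lies 1494 bases downstream of the first exon that the files list for Cd80. None of the 4 motifs was found in this window of Tnfsf15 or Icosl. The NF-κB consensus, held by 3.90% of all promoters, and TTCNNNGAA, held by 7.02%, were in none of the 4 windows. These matches describe letters only.

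The libraries hold 80071 to 90401 event rows each, no read counts and therefore no known depth, and the correlation of log2(FPKM + 1) within groups was 0.961 to 0.975. Replicate 3 of LPS-treated TLR4-WT correlated with libraries 1 and 2 of its own group at 0.966 and 0.962 and with those of LPS-treated TLR4-K730R at 0.970 and 0.970. Replicate 3 of LPS-treated TLR4-K730R correlated at 0.966 and 0.963 with its own group and at 0.969 and 0.974 with libraries 1 and 2 of LPS-treated TLR4-WT. By the mean correlation with a group, 3 of the 18 libraries were closer to another group than to their own. Replicate 3 of LPS-treated TLR4-WT had a mean of 0.964 with its own group and was closest to LPS-treated TLR4-K810R (0.968), and replicate 3 of LPS-treated TLR4-K730R had 0.964 and was closest to LPS-treated TLR4-WT (0.968). The third, replicate 2 of LPS-treated TLR4-WT, had equal means to 4 decimals (0.9668) with its own group and with LPS-treated TLR4-K730R. The labels were kept as given, and whether the 2 replicate 3 libraries carry the right ones was not tested. If they do not, every value of TLR4-WT and TLR4-K730R after LPS below has another meaning, so the genotype comparisons after LPS are given with and without them. Macrophage markers were high: Lyz2 was at 5944 FPKM or more in every library and Adgre1 at 148 FPKM or more, while Itgam and Cebpb have no value and Cd14 has no end event on its own strand in 17 of 18 libraries and read 463 FPKM in the other. The summed macrophage list read 11770 to 14980 FPKM in mock and 7524 to 10270 in LPS libraries. Other lists also moved with the groups, and their part in the results was not tested. Neutrophil genes summed to 95.6 to 114 FPKM in mock and 293 to 395 after LPS, with S100a8, Mmp9 and Csf3r in the lead and Ly6g at most at 0.644. B cell genes, led by Cd22, went from sums of 7.44 to 24.4 in mock to 4.48 to 8.46 after LPS, and mast cell genes went from 0.517 to 6.24 up to 8.25 to 25.4, led after LPS by Hdc, which read at most 0.479 in mock and 5.92 to 20.3 after LPS, while Tpsb2 was at most at 2.27 in any library. The sum over T and NK cell genes was at most 1.56 FPKM. Dendritic cell genes, led by Fscn1, summed to 6.36 to 8.78 FPKM in mock TLR4-WT and to 18.3 to 29.6 in mock TLR4-K810R, mesothelial and fibroblast genes to 32.6 to 49.1 and 118 to 286, and intestinal genes to 2.44 to 3.04 and 23.4 to 77.02. In these bulk libraries, fewer cells of a type and less RNA per cell cannot be told apart. Eosinophil genes summed to at most 2.80 FPKM.

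**Figure D1:**
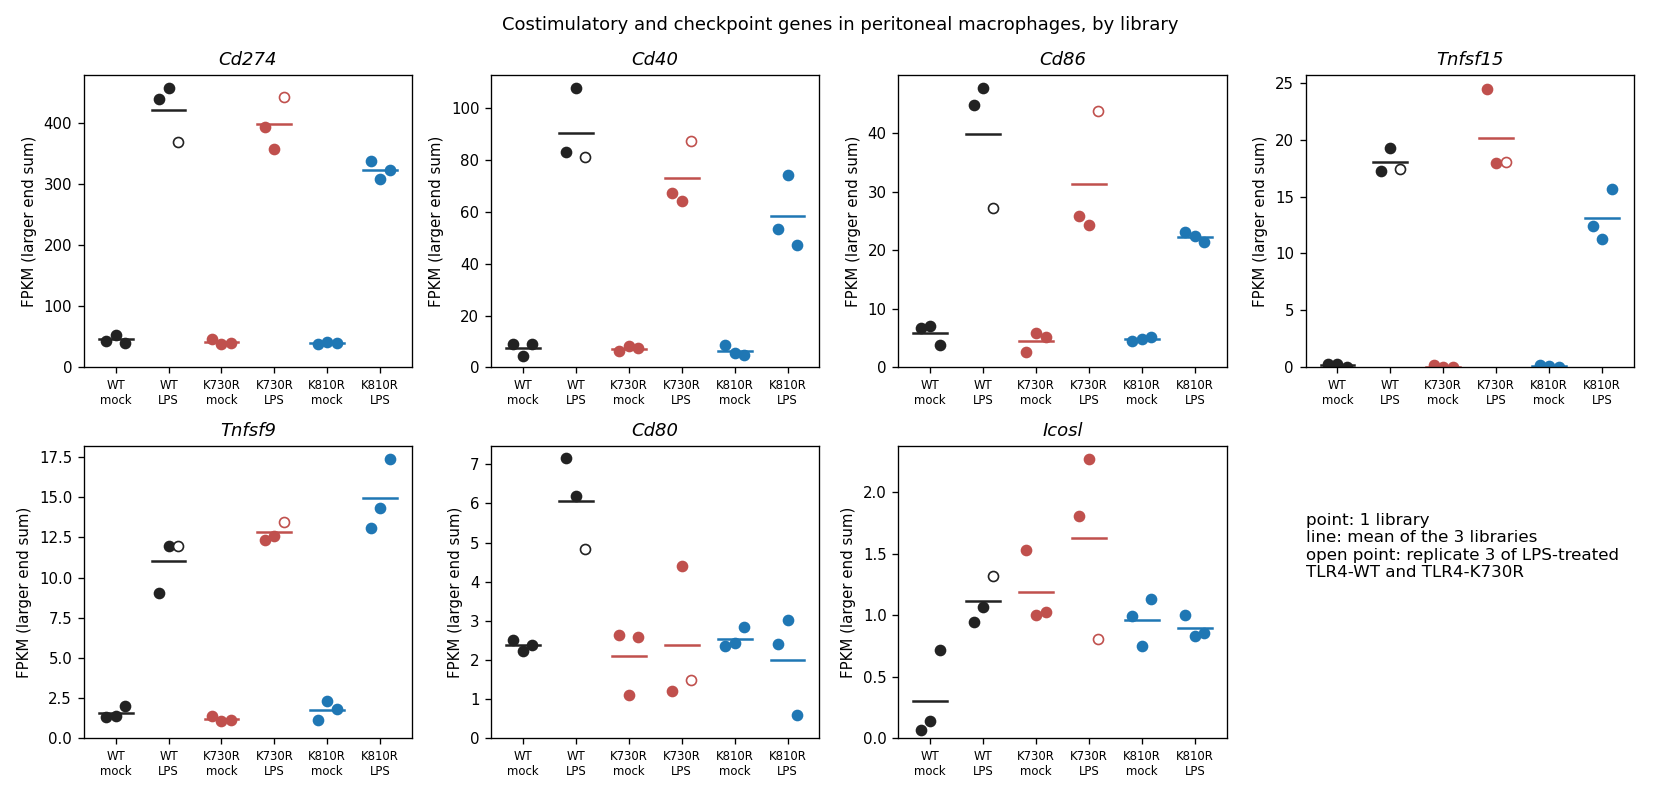
Level of each of the 7 genes in FPKM (vertical axes, linear from 0) in the 6 groups. Points are libraries, lines are means of 3 libraries, and open points are replicate 3 of LPS-treated TLR4-WT and of LPS-treated TLR4-K730R. The LPS libraries of Cd274, Cd40, Cd86, Tnfsf15 and Tnfsf9 all lie above the mock libraries, and those of Cd80 and Icosl overlap with mock in the mutants.

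The first comparison asks how LPS changed each gene within a genotype. Across all genes tested, 34.3% (TLR4-WT), 35.8% (TLR4-K730R) and 28.8% (TLR4-K810R) were called, and those called higher were 10.4%, 9.32% and 9.08%. Of the 7 genes, 5 were called in each genotype, all of them higher. Tnfsf15 is 1 of these and had to differ, since it passed the filter only through LPS libraries, and of the other 6 genes 4 were called. The median difference of the 7 genes was 2.57, 2.65 and 2.55 in the same order, beside medians over all genes of -0.28, -0.36 and -0.26. Scaling the libraries by the median of ratios moved those medians to -0.02, -0.04 and -0.04. The same scaling changed the split of all called genes in TLR4-WT from 1012 higher and 2316 lower to 1492 and 1379. In TLR4-K730R it went from 905 and 2568 to 1490 and 1303, and in TLR4-K810R from 881 and 1916 to 1194 and 1132.

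Cd80 binds the same receptors as Cd86 and had lower levels in every group. In TLR4-WT it read 2.50, 2.23 and 2.38 FPKM in mock and 7.15, 6.19 and 4.83 after LPS. In TLR4-K730R it read 2.63, 1.099 and 2.59 in mock and 1.21, 4.41 and 1.496 after LPS. TLR4-K810R read 2.35, 2.44 and 2.84 in mock and 2.40, 3.01 and 0.594 after LPS. Mock and LPS libraries separated in TLR4-WT and overlapped in both mutants. In the order TLR4-WT, TLR4-K730R and TLR4-K810R, the differences were 1.05 ± 0.35 (SE, adjusted p = 0.0204), 0.04 ± 0.35 (adjusted p = 0.93) and -0.34 ± 0.35 (adjusted p = 0.460), with 95% confidence intervals of 0.32 to 1.79, -0.69 to 0.78 and -1.08 to 0.40. The call in TLR4-WT depends on libraries of other groups: without replicate 2 of LPS-treated TLR4-K730R its adjusted p was 0.00781, and leaving out LPS-treated TLR4-K810R replicate 3 gave 0.00758.

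The end events of Cd80 are listed only in part. Its first exon (chr16:38457439-38457536) is missing from 3 libraries, and the 2 ends were within 1.1 times of each other in 2 libraries. An internal coding exon of 282 bases (chr16:38479064-38479345, exon 3 of 5) is listed in all 18, and the sum of its included and skipped forms was over 1.1 times the level in 10 libraries, by up to 6.52 times. That sum read 1.51, 2.23 and 1.73 FPKM in mock TLR4-WT and 8.61, 8.14 and 5.32 after LPS. In TLR4-K730R it read 3.03, 0.706 and 2.59 in mock and 4.62, 6.14 and 5.12 after LPS. In TLR4-K810R it read 2.12, 2.63 and 1.67 in mock and 3.20, 3.77 and 3.87 after LPS. By this event, every LPS library lay above every mock library of its genotype. The share of all genes that separate in this way was not computed. With the level taken as the largest of the end sums and this sum, a choice made after the values were seen, the differences were 1.29 (adjusted p = 0.000112), 1.01 (adjusted p = 0.000948) and 0.36 (adjusted p = 0.194) in the same order. The skipped form of the exon was listed in 4 of the 9 LPS libraries, at 8.05% to 26.2%, and in no mock library.

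**Figure D2:**
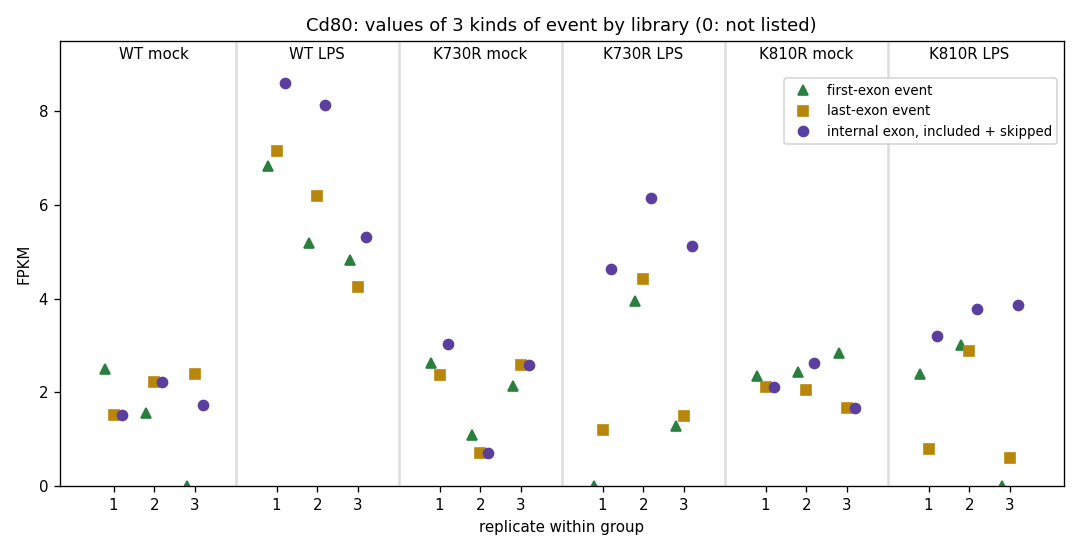
FPKM of the first-exon event, the last-exon event and the internal 282-base exon (included plus skipped forms) of Cd80, by library. The internal exon is above both ends in all LPS libraries. Its ratio to the higher end is largest in replicate 3 of LPS-treated TLR4-K810R, at 3.87 against 0.594 for the last exon.

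Cd86 is a B7 ligand of CD28 and CTLA-4 and is widely used as a marker of inflammatory macrophages. Its TLR4-WT libraries read 6.72, 7.11 and 3.80 FPKM in mock and 44.8, 47.7 and 27.3 after LPS. In TLR4-K730R they read 2.65, 5.83 and 5.25 in mock and 25.9, 24.3 and 43.9 after LPS. TLR4-K810R libraries read 4.51, 4.90 and 5.11 in mock and 23.2, 22.5 and 21.4 after LPS. All LPS libraries lay above all mock libraries. Replicate 3 of LPS-treated TLR4-WT was the lowest of its group and replicate 3 of LPS-treated TLR4-K730R the highest of its own, and these are the 2 libraries named above. The difference was 2.57 ± 0.28, 2.54 ± 0.28 and 2.0 ± 0.28 (SE) in the order TLR4-WT, TLR4-K730R and TLR4-K810R, with adjusted p of 1.45e-06, 1.61e-06 and 2.59e-05. The fold changes were 6.79, 6.86 and 4.62. Without both libraries the difference in TLR4-K730R was 2.28 (adjusted p = 5.76e-06). No last-exon event of Cd86 is listed in any library, so its level comes from first exons alone. The first exon at chr16:36665948-36666077 (- strand) held 99.0% of that sum on average, and a second one at chr16:36642529-36642805 held at most 3.97%.

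Icosl, the ligand of ICOS, had the lowest mean LPS level of the 7 genes in every genotype. In TLR4-WT it read 0.0640, 0.139 and 0.714 FPKM in mock and 0.945, 1.07 and 1.32 after LPS. In TLR4-K730R it read 1.53, 0.999 and 1.02 in mock and 1.81, 2.27 and 0.806 after LPS. TLR4-K810R read 0.995, 0.752 and 1.14 in mock and 1.002, 0.833 and 0.856 after LPS. Mock TLR4-WT was the lowest group, and LPS libraries separated from mock in TLR4-WT alone. The differences were 0.72 ± 0.22 (adjusted p = 0.0143), 0.23 ± 0.22 (adjusted p = 0.408) and -0.04 ± 0.22 (adjusted p = 0.895) in the order TLR4-WT, TLR4-K730R and TLR4-K810R. Without replicate 3 of mock TLR4-WT the first was 0.94 (adjusted p = 0.00371), and leaving out LPS-treated TLR4-K730R replicate 3 gave an adjusted p of 0.00552. Icosl has no last-exon event in any library. Of its first exons, the one at chr10:78069302-78069535 held 82.5% of the first-exon sum in LPS and 71.9% in mock libraries on average, a difference of 10.6 percentage points (p = 0.418, two-sided exact permutation test within genotypes over 8000 arrangements).

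Cd274 encodes PD-L1, the ligand of the inhibitory receptor PD-1, and had the highest level of the 7 genes in every group. In TLR4-WT it read 43.3, 53.5 and 40.3 FPKM in mock libraries and 438, 457 and 369 after LPS. In TLR4-K730R the values were 46.3, 37.6 and 40.2 in mock and 393, 357 and 442 after LPS. The TLR4-K810R libraries read 38.5, 40.9 and 40.1 in mock and 337, 307 and 323 after LPS. Mock and LPS libraries were far apart in every genotype, and the 3 LPS-treated TLR4-K810R libraries were the lowest of the 9 that received LPS. The rise was 9.23-fold, 9.60-fold and 8.10-fold in the order TLR4-WT, TLR4-K730R and TLR4-K810R, or 3.18 ± 0.12, 3.23 ± 0.12 and 2.99 ± 0.12 (SE) on the log2(FPKM + 1) scale, with adjusted p of 2.05e-11, 1.32e-11 and 3.36e-11 (limma). The first-exon and last-exon values of Cd274 were within 1.1 times of each other in all 18 libraries, so its level does not depend on which end is read.

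Cd274 also has an internal exon of 66 bases (exon 2 of 7; chr19:29372454-29372519) that holds 14 bases before the start codon and the first 52 coding bases. It is shown because some libraries list a form without it, and capitals mark the start codon.
Cd274 exon 2: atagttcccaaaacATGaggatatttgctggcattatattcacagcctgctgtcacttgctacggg
A form that skips this exon was listed in 4 of the 18 libraries. Its share was 9.41% in replicate 2 of mock TLR4-WT, 11.8% in replicate 1 of mock TLR4-K730R, 9.85% in replicate 3 of mock TLR4-K810R and 11.1% in replicate 1 of LPS-treated TLR4-K810R. The form thus appeared in 1 or no library of each group and did not separate LPS from mock.

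Tnfsf9 encodes 4-1BBL. In TLR4-WT it read 1.30, 1.41 and 2.01 FPKM in mock and 9.06, 11.99 and 11.96 after LPS. In TLR4-K730R it read 1.39, 1.09 and 1.14 in mock and 12.4, 12.6 and 13.5 after LPS. TLR4-K810R gave 1.14, 2.30 and 1.83 in mock and 13.1, 14.3 and 17.4 after LPS. Its mean LPS levels ran in the opposite order to those of Cd274, Cd40 and Cd86, with TLR4-K810R on top and TLR4-WT at the bottom. No difference between genotypes was called for any of these genes. The LPS libraries of TLR4-K810R and TLR4-K730R overlapped for Tnfsf9. The rise was 6.99-fold, 10.6-fold and 8.51-fold in the order TLR4-WT, TLR4-K730R and TLR4-K810R, by 2.22 ± 0.17, 2.65 ± 0.17 and 2.55 ± 0.17 (SE), with adjusted p of 2.91e-08, 3.52e-09 and 6.37e-09. Both ends of Tnfsf9 gave the same value in all 18 libraries, within 1.1 times.

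Tnfsf15, which encodes TL1A, was near 0 without LPS. No end event of it is listed in 4 of the 9 mock libraries, which counts as 0 here, and the rest of them read 0.138 to 0.293 FPKM. After LPS the TLR4-WT libraries read 17.3, 19.3 and 17.4. The TLR4-K730R libraries read 24.5, 17.9 and 18.04, and those of TLR4-K810R 12.4, 11.2 and 15.7. The LPS libraries of TLR4-K810R lay below those of both other genotypes. The differences were 4.01 ± 0.16, 4.29 ± 0.16 and 3.66 ± 0.16 (SE) in that order, with adjusted p of 2.95e-11, 1.32e-11 and 6.51e-11. Only its LPS libraries reached 1 FPKM, so it entered the test through the groups where it is high and had to differ there. No fold is given, since part of the mock libraries have no listed event.

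Cd40 is the receptor that receives T cell help. In TLR4-WT it read 9.096, 4.36 and 8.90 FPKM in mock and 82.9, 108 and 81.2 after LPS. TLR4-K730R libraries read 6.27, 8.25 and 7.36 in mock and 67.3, 64.2 and 87.5 after LPS. TLR4-K810R libraries read 8.598, 5.75 and 4.81 in mock and 53.6, 74.2 and 47.1 after LPS. The lowest LPS library was thus well above the highest mock library. Cd40 rose 12.2-fold, 10.01-fold and 9.13-fold in the order TLR4-WT, TLR4-K730R and TLR4-K810R, by 3.48 ± 0.25, 3.15 ± 0.25 and 3.01 ± 0.25 (SE), with adjusted p of 1.44e-08, 4.33e-08 and 8.68e-08. Its last exon at chr2:165070722-165072948 held 96.5% of the last-exon sum on average, and a shorter end at chr2:165066503-165066695 held up to 10.1%.

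Cd40 had 21 events listed, the most of the 7 genes. Mouse Cd40 is known to be spliced into forms that differ around the membrane-spanning part. Exon 6 of 9 (chr2:165066503-165066564), all 62 bases of it coding, is shown because its skipped form was listed in every library.
Cd40 exon 6: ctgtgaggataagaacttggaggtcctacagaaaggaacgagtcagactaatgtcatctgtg
Its length leaves 2 bases when divided by 3, so skipping it shifts the reading frame. The skipped share in mock libraries ran from 0.0118% over a median of 3.90% to 25.6%, and in LPS libraries from 0.00137% over a median of 0.00231% to 4.09%. The 3 LPS libraries of TLR4-WT and of TLR4-K730R were all under the shares of their mock libraries, and in TLR4-K810R replicate 2 after LPS overlapped with mock. Behind these shares stand 0.000782 to 2.02 FPKM of the skipped form in mock and 0.000899 to 2.98 FPKM after LPS, while the form with the exon rose. The neighbouring exon 7 of 87 bases (chr2:165069629-165069715) reached a skipped share of 55.01% in LPS-treated TLR4-K810R (replicate 1), and the highest mock library was at 13.2%. The 103-base intron after it (chr2:165069715-165069817 with its flanking bases) was retained at a median of 20.1% in mock and 20.0% after LPS, from 0% to 54.3% and from 4.95% to 54.3%. These shares are estimates of the event program with no counts behind them and were not tested.

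**Figure D3:**
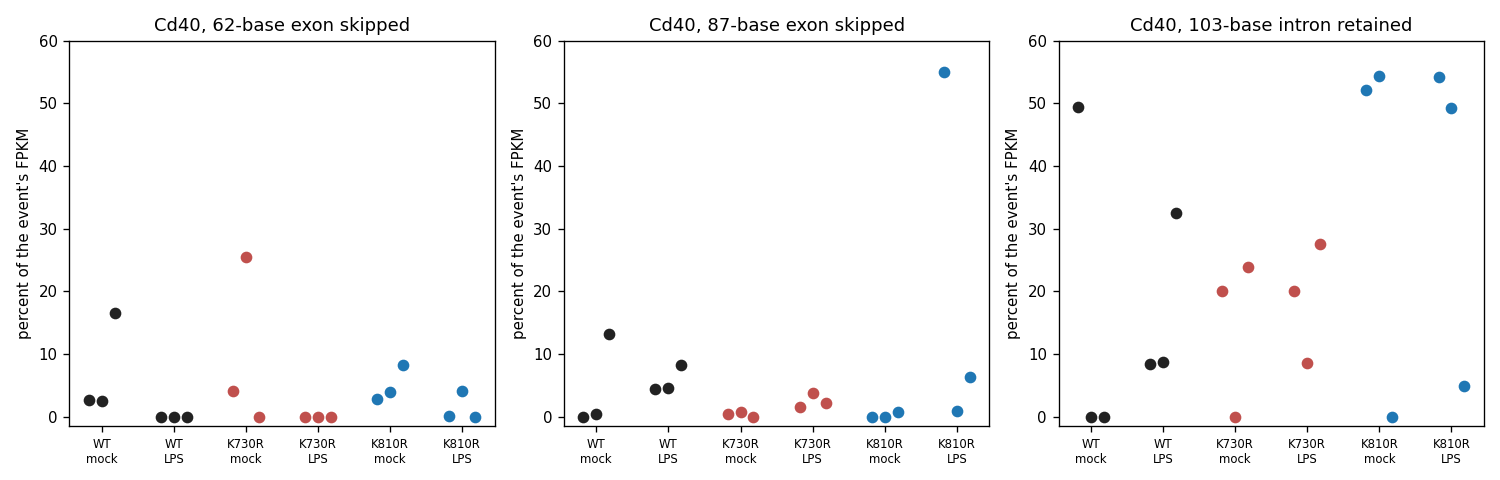
Share of the FPKM of an event (vertical axes, percent) that skips the 62-base exon, skips the 87-base exon or retains the 103-base intron of Cd40, by group, with 1 point a library. The shares of the 62-base exon are near 0 in LPS-treated TLR4-WT and TLR4-K730R, the 87-base exon has 1 library at 55.01%, and the intron spreads from 0% to 54.3% in mock.

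**Figure D4:**
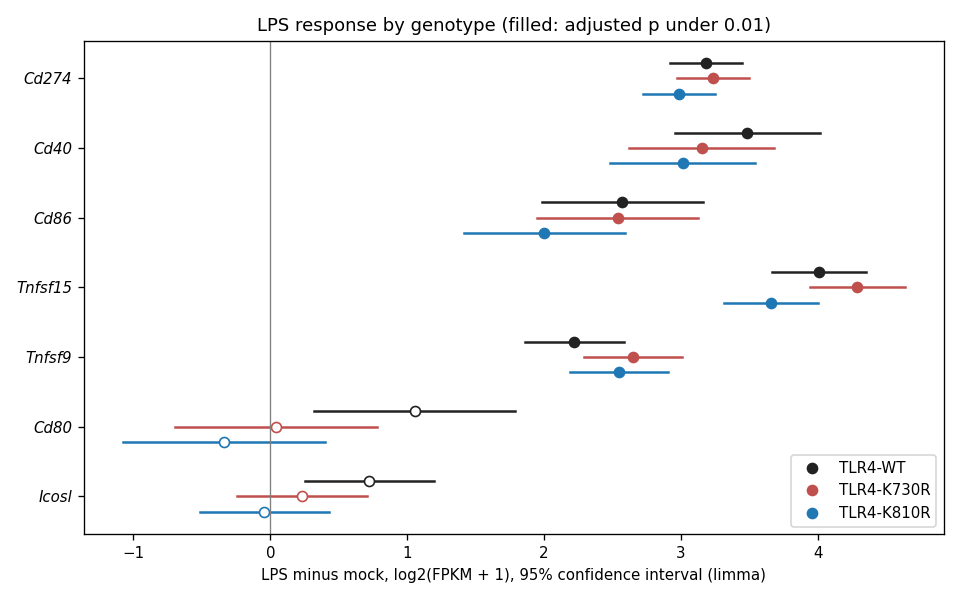
Difference between LPS and mock on the log2(FPKM + 1) scale (horizontal axis) for the 7 genes in each genotype. Points are limma estimates, lines their 95% confidence intervals, and filled points have an adjusted p under 0.01. Cd274, Cd40, Cd86, Tnfsf15 and Tnfsf9 lie between 2.0 and 4.29 in all genotypes, and the intervals of Cd80 and Icosl include 0 in both mutants.

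The second comparison asks whether the genotypes differed after LPS. The comparisons with TLR4-WT share its libraries. For TLR4-K810R against TLR4-WT, 0 of the 7 genes were called, beside 0.134% of all genes tested, and 6 of the 7 had an unadjusted limma p under 0.05, beside 21.8% of all genes. Cd80, Cd86, Cd274, Cd40 and Tnfsf15 were lower in every TLR4-K810R library than in every TLR4-WT library, a pattern that 7.89% of all genes show, and Tnfsf9 was higher, as were 17.4% of all genes. The difference was -1.33 for Cd80 (95% interval -2.06 to -0.59, adjusted p = 0.0542), -0.77 for Cd86 (-1.36 to -0.18, adjusted p = 0.129), -0.64 for Cd40 (-1.17 to -0.11, adjusted p = 0.161), -0.44 for Tnfsf15 (-0.79 to -0.10, adjusted p = 0.139), -0.38 for Cd274 (-0.64 to -0.12, adjusted p = 0.102) and 0.41 for Tnfsf9 (0.05 to 0.77, adjusted p = 0.182). Icosl was at -0.15 (-0.62 to 0.32). In fold terms the group means of Cd274 were 322 ± 14.9 against 421 ± 46.4 FPKM, those of Cd86 22.4 ± 0.912 against 39.9 ± 11.1 and those of Cd40 58.3 ± 14.2 against 90.6 ± 14.8. The dendritic cell list read 18.7 to 25.6 FPKM in LPS-treated TLR4-K810R and 10.02 to 19.2 in LPS-treated TLR4-WT, which overlap. The mast cell list did not overlap, at 8.25 to 11.2 against 14.02 to 25.4. Most of these sums was Hdc, at 5.92 to 7.96 against 11.5 to 20.1. The neutrophil list overlapped, at 326 to 352 against 306 to 388. Its gene S100a9 was called higher at 1.43 (adjusted p = 0.00850), from at most 0.220 FPKM in TLR4-WT to 1.63 to 2.23 in TLR4-K810R. S100a9 reached 1 FPKM only in TLR4-K810R libraries and entered the test through them, which favoured this call. The part of these lists in the differences was not tested. The median of all genes was 0.11 in this comparison and -0.01 after scaling by the median of ratios.

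Without replicate 3 of TLR4-WT and of TLR4-K730R after LPS, 577 genes were called for TLR4-K810R against TLR4-WT after LPS in place of 13, and for TLR4-K730R against TLR4-WT 161 in place of 0. None of the 7 genes was among them at 0.01, and 3 of the 7 had an adjusted p under 0.05 for TLR4-K810R. These were Cd86 at -1.02 (adjusted p = 0.0154), Cd274 at -0.47 (adjusted p = 0.0198) and Cd80 at -1.46 (adjusted p = 0.0269). With each fit that left out these 2 libraries, a group of 2 libraries stands for TLR4-WT and for TLR4-K730R after LPS. Cd80 with its internal exon counted was at -0.84 in all libraries (adjusted p = 0.0499).

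For TLR4-K730R against TLR4-WT after LPS, none of the 7 genes was called, beside 0% of all genes tested, and 1 of the 7 had an unadjusted limma p under 0.05, beside 7.69% of all genes. That gene was Cd80 at -1.17 (95% interval -1.91 to -0.44, adjusted p = 0.541), whose 3 TLR4-K730R libraries lay under all TLR4-WT libraries, as did those of 7.54% of all genes. Tnfsf9 lay above in all 3, as did 3.32% of all genes, at 0.21 (-0.15 to 0.57). With the internal exon counted, the Cd80 difference shrank to -0.39 (adjusted p = 0.683). Cd86 was at -0.35 (-0.94 to 0.24) with all libraries and at -0.86 (95% interval -1.44 to -0.27, adjusted p = 0.0990) without both. Icosl went from 0.28 (-0.20 to 0.75) to 0.59 (0.10 to 1.09, adjusted p = 0.185). Between the mutants, TLR4-K810R against TLR4-K730R after LPS, 0 of the 7 genes were called (0.0618% of all genes) and 2 had an unadjusted p under 0.05, beside 18.8% of all genes. Cd86, Cd274 and Tnfsf15 were lower in every TLR4-K810R library, as were 4.44% of all genes. Tnfsf15 was at -0.58 (95% interval -0.93 to -0.24, adjusted p = 0.0761) and Cd274 at -0.30 (-0.56 to -0.03, adjusted p = 0.213). Without both libraries Tnfsf15 was at -0.65 (-1.06 to -0.25), Cd274 at -0.22 with an interval that includes 0 (-0.48 to 0.045), Cd86 at -0.16 in place of -0.42, and Icosl at -0.68 (-1.13 to -0.22, adjusted p = 0.132) in place of -0.43.

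**Figure D5:**
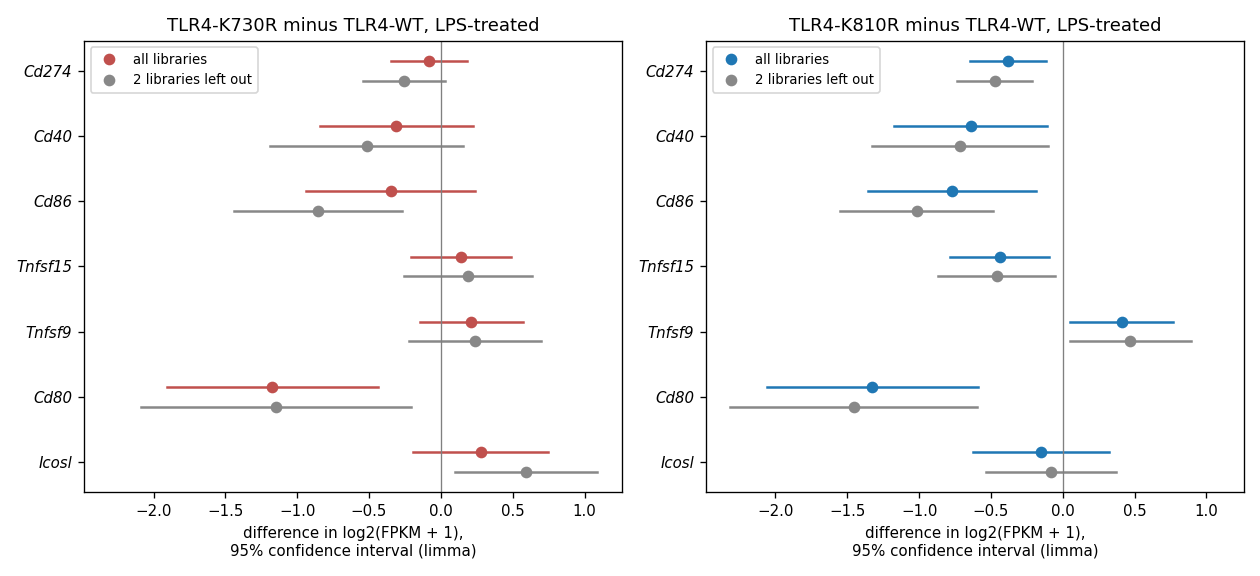
Difference of each mutant from TLR4-WT in LPS-treated cells on the log2(FPKM + 1) scale (horizontal axes), with 95% confidence intervals from limma. Coloured points use all libraries and grey points leave out replicate 3 of LPS-treated TLR4-WT and of LPS-treated TLR4-K730R. For TLR4-K810R, 5 genes lie below 0 and Tnfsf9 above it with intervals that do not include 0, both ways.

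The genotypes were also compared in mock cells. For TLR4-K730R against TLR4-WT, 0 of the 7 genes were called, beside 0.268% of all genes, for TLR4-K810R against TLR4-WT 0 beside 1.58%, and for TLR4-K810R against TLR4-K730R 0 beside 0.0824%. Of the 7 genes, Icosl alone had an unadjusted limma p under 0.05, in both comparisons with TLR4-WT, where 7.70% (TLR4-K730R) and 14.1% (TLR4-K810R) of all genes had one, with 0.77 ± 0.22 (adjusted p = 0.250) in TLR4-K730R and 0.62 ± 0.22 (SE, adjusted p = 0.185) in TLR4-K810R against TLR4-WT. It read 1.19 ± 0.301 FPKM in mock TLR4-K730R and 0.961 ± 0.194 in mock TLR4-K810R against 0.306 ± 0.356 in mock TLR4-WT (SD, n = 3). In mock TLR4-K730R, the dendritic cell list summed to 11.9 to 15.7 FPKM. The mesothelial and fibroblast list summed there to 59.8 to 69.4 and the intestinal list to 13.9 to 49.0. These sums were thus higher in both mock mutant groups than in mock TLR4-WT. The dendritic cell sum was mostly Fscn1, at 6.28 to 8.17 FPKM in mock TLR4-WT, 11.0 to 14.9 in TLR4-K730R and 16.4 to 27.1 in TLR4-K810R. Ccr7, the other tested gene of that list, was at most at 0.596 in mock and no higher in the mutants. The mast cell list was lower in both mock mutant groups, at 0.517 to 3.09 in TLR4-K730R and 1.70 to 3.99 in TLR4-K810R against 5.11 to 6.24 in TLR4-WT. The part of these lists in the Icosl values was not tested. The mock differences of Cd86 from TLR4-WT were -0.32 in TLR4-K730R and -0.20 in TLR4-K810R, and those of Cd274 were -0.14 and -0.18, all with intervals that include 0.

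The third comparison is of the LPS responses themselves, as an interaction term. None of the 7 genes was called for TLR4-K730R against TLR4-WT, beside 0.0412% of all genes, or for TLR4-K810R against TLR4-WT, beside 0.124%. By unadjusted limma p, 0 and 2 of the 7 were under 0.05, beside 7.02% and 13.2% of all genes. The 2 were Cd80, whose response was lower by 1.39 in TLR4-K810R (difference -1.39, 95% interval -2.43 to -0.35, adjusted p = 0.246; -0.93 with the internal exon counted, adjusted p = 0.195), and Icosl, at -0.77 (-1.44 to -0.10, adjusted p = 0.308). The responses of Cd274 differed by -0.20 (-0.57 to 0.18) in TLR4-K810R and by 0.05 (-0.32 to 0.42) in TLR4-K730R, those of Cd86 by -0.57 (-1.40 to 0.26) and -0.03 (-0.86 to 0.80) and those of Cd40 by -0.47 (-1.22 to 0.28) and -0.33 (-1.08 to 0.42). Without both libraries, the Cd86 difference was -0.82 (-1.54 to -0.10, adjusted p = 0.202) in TLR4-K810R and -0.54 (-1.30 to 0.22) in TLR4-K730R. That of Cd274 was -0.29 (-0.64 to 0.061) and -0.12 (-0.49 to 0.25). That of Cd80 in TLR4-K810R was -1.52 (-2.68 to -0.37, adjusted p = 0.138). The Icosl difference was -0.70 (-1.30 to -0.089, adjusted p = 0.200) in TLR4-K810R. None was called. The LPS response of Cd274, Cd86 and Cd40 was called within each genotype, and the difference of the responses did not pass the adjusted test with or without both libraries.

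Other genes of these pathways were counted from lists. Of 16 further B7, butyrophilin and related genes, 10 were tested, and LPS called 5 higher and 3 lower in TLR4-WT and 4 higher and 4 lower in each mutant, with medians of 0.67, 0.12 and -0.20. Siglece, an inhibitory lectin, rose by 3.38, 2.87 and 3.76 in the order TLR4-WT, TLR4-K730R and TLR4-K810R, and Lgals9, which encodes the TIM-3 ligand galectin-9, by 2.38, 2.72 and 2.68. The checkpoint genes Vsir, which encodes VISTA, and Havcr2, which encodes TIM-3, fell: Vsir changed by -2.69, -3.09 and -2.86 and Havcr2 by -2.04, -2.11 and -1.76. In mock cells, Nectin2 was higher in TLR4-K810R than in TLR4-WT by 1.33 (adjusted p = 0.00279) and Lgals9 was at -0.62 (adjusted p = 0.00607).

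Of 15 further TNF superfamily ligands, 3 were tested. Tnf rose by 3.96, 3.93 and 4.28 in TLR4-WT, TLR4-K730R and TLR4-K810R. Tnfsf12, which encodes TWEAK, was lower after LPS at -2.42, -2.17 and -1.70. Tnfsf10, which encodes TRAIL, was called higher in TLR4-WT (2.52) and TLR4-K730R (1.75) and was at 1.30 in TLR4-K810R (adjusted p = 0.0310). Its mock libraries read at most 0.757 FPKM, so it too entered the test only through LPS libraries, which favoured a difference.

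Of the 14 genes of CD40 and TNF receptor signalling, 13 were tested, and LPS called 9, 8 and 9 higher and none lower, with medians of 0.92, 0.96 and 1.34. Traf1, an adaptor of CD40 and 4-1BB, rose by 4.38, 4.61 and 4.23, Nfkb2 by 3.12, 2.96 and 2.88, the feedback inhibitor Tnfaip3 by 2.38, 2.33 and 2.32 and Traf5 by 1.74, 2.07 and 2.03. No gene of this list was called between genotypes.

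Of 10 genes of PD-L1 stability and interferon signalling, 9 were tested, with 4 higher and 2 lower in TLR4-WT and 3 higher and 3 lower in each mutant. Jak2, a kinase of interferon receptors, rose by 2.94, 2.69 and 1.97 in the order TLR4-WT, TLR4-K730R and TLR4-K810R, and the interferon-induced transcription factor gene Irf1 by 2.32, 2.45 and 1.64. The receptor subunit gene Ifngr1 was at -1.53, -1.71 and -1.74. Of 6 adhesion genes of the immune synapse, 5 were tested and 3 were called higher in each genotype: Vcam1 by 3.04, 2.56 and 2.08, Icam1 by 1.65, 1.67 and 2.32 and Itgal by 0.60, 0.68 and 1.07. In mock cells Icam1 and Itgal were lower in TLR4-K810R than in TLR4-WT, at -0.60 (adjusted p = 0.00228) and -0.64 (adjusted p = 0.00660). Of the 7 genes listed for the binding partners that T cells carry, CD40 ligand among them, 1 was tested. Tnfrsf9, which encodes 4-1BB, was higher after LPS in TLR4-WT by 1.28 (adjusted p = 0.00252) and was not called in the mutants (0.34 and 0.65). It reached 1 FPKM only in LPS libraries and so entered the test through them, and its response did not pass the test for a difference between genotypes.

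The genes whose log2(FPKM + 1) followed each member most closely over the 18 libraries, by Pearson's r, are named here with that r. They were Ms4a6d (0.996), Mlkl (0.996) and Ms4a4a (0.996) for Cd274, Il1a (0.996), U90926 (0.995) and Ccl4 (0.995) for Tnfsf15, Gbp5 (0.990), Dtx2 (0.988) and Map2k1 (0.987) for Cd40, Ctsc (0.987), Scimp (0.986) and Trim30c (0.985) for Cd86, and Thbs1 (0.986), Gpd2 (0.985) and Acvr1b (0.984) for Tnfsf9. For Cd80 and Icosl the closest genes were less close: Stx8 (0.775), Lin9 (0.719) and Hnrnph2 (0.698) for Cd80, and Plcd1 (0.786), Ing1 (0.783) and Spint2 (0.723) for Icosl. The 18 libraries form a mock and an LPS cluster, and any gene that separates the clusters scores high, so these values are a description.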

How the data were processed

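RNA-seq libraries of peritoneal macrophages (3 in each of 6 groups, grouped by the sample labels) were used. The authors deposited, for each library, FPKM values of transcript events of 20 kinds with a mouse Ensembl gene number. The aligner and event program are not given in the sources used here. The submitters' processing notes name hg18, a human build, while the coordinates fit GRCm38. Of 14138 Ensembl numbers, 14126 were found in GENCODE vM21, and events off the strand or span of the named gene were left out (6.24% of end-event FPKM). First-exon events and last-exon events of a gene were summed apart, and the higher sum was used. Events without a row count as 0. Without read counts, depth is unknown and no count test was run.

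Genes at 1 FPKM or more in 3 or more of 18 libraries were tested in R 4.3.3 with limma 3.58.1 on log2(FPKM + 1), all groups in 1 fit, empirical Bayes moderation with a trend in intensity, and p-values adjusted by Benjamini-Hochberg across the 9707 genes, separately for the 11 comparisons, at an adjusted p under 0.01. The members, lists and tests were chosen with earlier results of these data known. The genes named beyond the 7 are, in each list, up to 4 with the largest mean LPS response among those called in all genotypes and any called between genotypes, and for each member the 3 genes closest in Pearson's r. Tnfsf10 and Tnfrsf9 were named after their values were seen. A gene that this rule also names is not reported here. Promoters came from the RefSeq table, exons from GENCODE transcripts. Alternatives changed the events summed, the pseudocount, the low-value filter, the scaling, the trend, the weights, the threshold and the groups or libraries fitted, or added the replicate number as a block. 2 were added after seeing the data: counting internal exons, and leaving out 2 libraries together.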

Additional observations from a re-analysis of the deposited data

Results flagged for a closer look

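The internal 282-base exon of Cd80 separated LPS from mock libraries in both mutants, where the end events behind the reported level did not. In TLR4-K730R its lowest LPS library, at 4.62 FPKM, was above its highest mock library, at 3.03 FPKM. In TLR4-K810R the lowest LPS library, at 3.20 FPKM, was above the highest mock library, at 2.63 FPKM. By the end events, mock and LPS libraries overlapped in both genotypes. With the internal exon counted, the LPS difference was 1.01 in TLR4-K730R, which was called, and 0.36 in TLR4-K810R, which was not. Counting it was a choice made after the values were seen. The share of all genes that separate LPS from mock in this way was not computed. The skipped form of the same exon reached 26.2% in 1 LPS library (TLR4-K730R replicate 3) and is not listed in mock libraries.

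Skipping of the 87-base exon of Cd40 reached 55% in replicate 1 of LPS-treated TLR4-K810R, above the highest mock library at 13.2%. The other 8 LPS libraries were between 0.863% and 8.20%. None of these shares was tested. No gene of the 7 met the test for a difference between the LPS responses of the genotypes.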

How the results depend on the processing

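The 15 called LPS differences of the 7 genes kept their direction and their call under 462 of 462 alternatives. They include those of Tnfsf15, which entered the test only through its LPS libraries and had to differ. The 6 LPS differences that were not called kept both their direction and that status under 163 of 183, were called in the same direction under 13 and changed direction under 7. The 13 genotype differences with an unadjusted p under 0.05 were not called, so they had no call to lose. They kept their direction under 399 of 399, but not their size or interval: Cd80 in TLR4-K730R against TLR4-WT after LPS was -0.39 with internal exons counted in place of -1.17, and Cd274 in TLR4-K810R against TLR4-K730R after LPS was -0.22 (-0.48 to 0.045) without both replicate 3 libraries. The count of called genes for LPS stayed at 5 to 6 in TLR4-WT and at 5 in each mutant when any 1 library was left out, ranged over the other alternatives from 4 to 7, 4 to 6 and 4 to 5 (4 with last-exon events only, since Cd86 and Icosl have none and could not be fitted), and was 0 for all genotype comparisons under every alternative. With the replicate block the counts were 5, 5 and 5 for LPS and 0 between genotypes, and same-numbered libraries did not deviate together (0 of 15 group pairs with every correlation over 0.1).

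For Cd80 in TLR4-K730R the LPS difference turned to -0.36 with first-exon events only and ranged from -0.36 to 0.29 when 1 library was left out (-0.22 without mock replicate 2, -0.36 without LPS replicate 2). For Cd80 in TLR4-K810R it turned to 0.36 with internal exons counted and to 0.065 without LPS replicate 3 (range -0.60 to 0.065 over left-out libraries). For Icosl in TLR4-K810R it turned to 0.086 with median-of-ratios scaling and to 0.02 without mock replicate 3 (range -0.12 to 0.02). In TLR4-WT, Cd80 was called with scaling (1.31, adjusted p = 0.00636) and with only the compared groups in the fit (adjusted p = 0.00231), and Icosl was called with a pseudocount of 0.1 (1.92, adjusted p = 0.00535), scaling (adjusted p = 0.00445) and library weights (adjusted p = 0.00285). Over the left-out libraries the adjusted p ran from 0.00758 to 0.0704 for Cd80 and from 0.00371 to 0.0663 for Icosl. The Icosl first-exon share difference was -4.35 percentage points without replicate 1 and at most 23.5 without another. The causes were not tested. Read depth is unknown, and values below about 1 FPKM carry no stated precision.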
